A study of Mus musculus with 12 samples.

Results

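Interferon-stimulated genes are the transcripts that cells switch on when interferons reach them, and 39 mouse genes of this kind were chosen by name: transcription factors of the pathway, sensors of viral nucleic acid, antiviral enzymes and effectors, the interferon-inducible GTPases, and the feedback genes Isg15, Usp18 and Socs1. Of these 39 genes, 37 had at least 1 probe on the array, 57 probes in all, and 32 were measured in the comparisons, out of 10612 genes. The study profiled CD4 intraepithelial T lymphocytes, which lie between the epithelial cells of the gut lining, sorted from the small intestine of mice that report the transcription factor ThPOK through green fluorescent protein. ThPOK holds T cells in the CD4 helper lineage, and gut CD4 T cells that lose it can take up the CD8a chain. The question addressed was how the sorted subsets differ, in unmanipulated mice and in a colitis model.

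Per the labels, every sample has the strain B6-ThPOK-GFP reporter and an age of 10 to 12 weeks. In the WT groups the cells came from reporter mice that had undergone no experiment. In the TR groups naive CD4 T cells of reporter mice had been transferred into RAG-/- recipients, which have no T or B cells of their own, to induce colitis. Within each host 3 subsets were sorted: THPOK+CD8a- (here ThPOK+ cells), THPOK-CD8a- (CD8a- cells) and THPOK-CD8a+ (CD8a+ cells). Each of the 6 groups had 2 arrays, numbered replicate 1 and replicate 2, which gave 12 arrays in all. The labels do not state whether replicates are separate animals, and the p-values below therefore describe the spread among these arrays, which can be technical.

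Type I interferons act through a receptor whose kinases activate a transcription factor complex that includes STAT2 and IRF9 and binds the interferon-stimulated response element (ISRE) of target promoters. Interferon-gamma, made by T cells themselves, acts on promoters through the gamma-activated site (GAS), and it is the main inducer of the immunity-related GTPases and guanylate-binding proteins. In the gut lining, intraepithelial T cells are a source of interferon-gamma and stand close to epithelial cells, which respond to interferons too.

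Promoters of 5 genes described below, and of Ifit1, an undetected gene set beside its relative Ifit3, are shown to place these motifs. Promoter windows from 250 bases before to 50 bases after the start of transcription were taken from RefSeq (build GRCm38.p6), and 30 of the 39 genes matched a window there by symbol. The ISRE core was searched on both strands as GAAA, any 2 bases and GAAA again, and the GAS core as TTCNNNGAA, which reads the same on both strands. At least 1 ISRE core was found in 19 of the 30 genes (63.3%), against 1079 of 27025 genes with a window (3.99%). A GAS core was found in 10 of the 30 (33.3%), against 2582 of 27025 (9.55%). Both motifs were present in 6 of the 30 genes and neither in 7. A match describes the letters in the window and is not evidence that a factor binds there. The stretches below are written 5′ to 3′ along the gene's own strand with the motifs in capitals. Igtp is shown at chr11:58199486-58199555 (plus strand), Irgm2 at chr11:58214877-58214947 (plus strand), Gbp2 at chr3:142620579-142620638 (plus strand), Oas3 at chr5:120777700-120777759 (minus strand), Ifit3 at chr19:34583348-34583441 (plus strand) and Ifit1 at chr19:34640760-34640838 (plus strand).
Igtp: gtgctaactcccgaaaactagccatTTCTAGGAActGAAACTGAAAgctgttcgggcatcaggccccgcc
Irgm2: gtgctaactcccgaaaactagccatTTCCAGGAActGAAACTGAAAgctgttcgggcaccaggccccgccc
Gbp2: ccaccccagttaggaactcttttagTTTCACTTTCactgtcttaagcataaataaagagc
Oas3: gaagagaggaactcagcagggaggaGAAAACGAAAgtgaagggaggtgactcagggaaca
Ifit3: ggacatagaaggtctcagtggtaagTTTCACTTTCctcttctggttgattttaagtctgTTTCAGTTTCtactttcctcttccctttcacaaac
Ifit1: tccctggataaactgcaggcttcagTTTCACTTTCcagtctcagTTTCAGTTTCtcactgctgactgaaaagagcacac
Igtp and Irgm2, which lie on the same chromosome, each carry a GAS core followed directly by an ISRE core, and 68 of the 70 bases compared between the 2 stretches were identical. Ifit3 and Ifit1 each carry a pair of ISRE cores, here read on the opposite strand.

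Signals are given on the log2 scale after background correction and quantile normalization, so a difference of 1 is a 2-fold difference, and levels are compared between arrays and never between genes. A gene was called detected on an array when the detection p-value of the probe that stands for it was under 0.05. The arrays of the 2 replicate numbers differed as measurements. Replicate 1 (6 arrays) had median raw signals of 113.6 to 130.8 with 12024 to 13091 probes detected per array. Replicate 2 (6 arrays) had median raw signals of 206.7 to 246.2 with 6721 to 8195 probes detected. Of 10 listed T cell markers, Cd3d, Cd3e, Cd3g, Cd4, Lck, Lat and Zap70 were detected on 12 of 12 arrays, Cd2 on 11 and Cd247 on 10, and Cd5 was not analysed here. The Cd8a transcript was also detected on 12 of 12 arrays, and its signal overlapped between the subsets, from 7.28 to 8.05 in ThPOK+ cells, 7.21 to 8.18 in CD8a- cells and 7.33 to 8.4 in CD8a+ cells. Markers of intestinal epithelium (12 of 15 measured) had a mean signal of 9.53 in the WT ThPOK+ array of replicate 1 and 9.20 in the WT CD8a+ array of replicate 2, against 5.94 to 7.41 on the other 10 arrays. Paneth and goblet cell markers (11 of 14 measured) read 9.42 and 9.4 on these 2 arrays, and 7.94 on the WT ThPOK+ array of replicate 2. That array was also highest for B and plasma cell markers (7.07, range from 5.21) and erythroid markers (7.80, range from 5.21). The WT CD8a- and CD8a+ arrays of replicate 2 followed, at 6.41 and 6.84 for B and plasma cell markers and 7.32 and 7.48 for erythroid markers. By the host names of the intensity table, erythroid markers read 6.14 to 7.80 on WT arrays and 5.21 to 5.92 on TR arrays. The part of these markers in the host comparisons was not tested. Of the gamma-delta and CD8ab T cell markers Cd8b1 alone was measured, detected on 5 of 12 arrays. It was highest on the WT CD8a+ arrays, at 6.89 and 7.25.

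Detection divided the 37 genes with a probe. Of the 32 genes measured, 16 were detected on all 12 arrays and 16 on 2 to 11 arrays. The former were Irf1, Irf9, Stat2, Ddx58, Zbp1, Eif2ak2, Oas3, Ifit2, Ifit3, Trim30a, Parp14, Gbp3, Igtp, Irgm1, Irgm2 and Ifi47. Irf7, Ifit1 and Mx2 were detected on 0 of 12 arrays and Oas2 and Ifi44 on 1 of 12, so these 5 genes entered no comparison. Irf7 encodes the factor that amplifies type I interferon production, Ifit1 a protein that binds foreign RNA, and Mx2 a dynamin-like antiviral GTPase. Their signals on all arrays lay between 5.0 and 5.61 for Irf7, between 4.97 and 6.12 for Ifit1 and between 5.01 and 5.96 for Mx2. The lowest signal of a detected probe ranged from 5.48 to 6.90 over the arrays, so a level under this range has only an upper bound. Isg15 and Xaf1 matched no probe by name and were not analysed here.

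**Figure D1:**
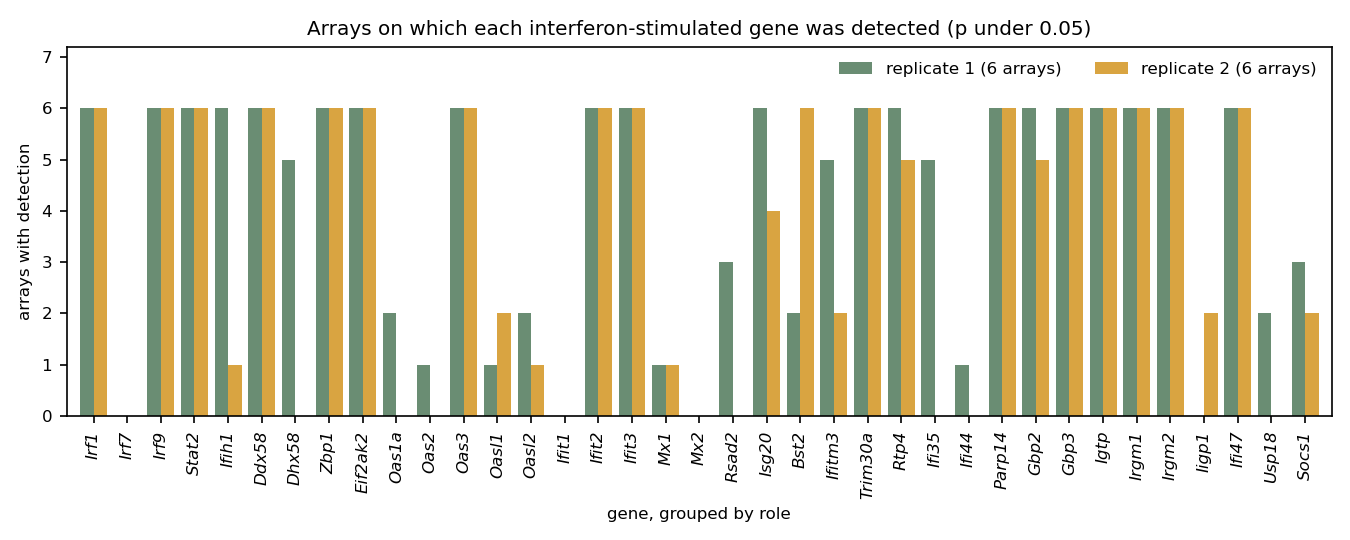
Number of arrays on which each of the 37 genes with a probe was detected (detection p under 0.05), for the 6 arrays of replicate 1 and the 6 arrays of replicate 2, with genes grouped by role from transcription factors (left) to feedback genes (right). The 16 genes detected on all 12 arrays reach 6 in both colours, while Irf7, Ifit1 and Mx2 have no bar.

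CD8a+ cells were first compared with ThPOK+ cells over both hosts, with the 4 sets of 3 arrays (1 host and 1 replicate number each) as a block. In this comparison no interferon-stimulated gene passed the test: limma called 0 of 32 genes at an adjusted p under 0.05, against a background of 62 of 10612 genes (0.584%). The smallest adjusted p was 0.167, for Igtp. Without adjustment, 5 of 32 genes had p under 0.05, 4 of them lower in CD8a+ cells (Igtp, Oas3, Irgm2 and Ifit2) and 1 higher (Eif2ak2). Of all genes tested 9.77% did so, 4.75% lower and 5.02% higher. The estimates were below 0 for 22 genes and above 0 for 10, with a median of -0.18 (-0.13 without the 2 arrays of highest epithelial signal), while the median over all genes tested was 0.0037 and 49.4% of them were below 0. Since each array measured RNA of a whole sorted population, fewer cells carrying a transcript and less of it per cell cannot be told apart.

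The 4 sets gave members' medians of -0.19 (WT replicate 1), -0.29 (WT replicate 2), -0.27 (TR replicate 1) and -0.14 (TR replicate 2) for CD8a+ minus ThPOK+ cells. In 4 of 4 sets the signal was lower in CD8a+ cells for 9 genes, against a background of 8.63% of all genes. These were Zbp1, Oas3, Ifit2, Ifit3, Gbp2, Gbp3, Igtp, Irgm2 and Iigp1. Iigp1 was detected on 0 of 4 CD8a+ and 1 of 4 ThPOK+ arrays, so most of its signs compare values below detection. Eif2ak2 alone was higher in 4 of 4 sets, against a background of 9.04%. The 4 CD8a+ arrays lay entirely below the 4 ThPOK+ arrays for 1 gene, Igtp, and 1.48% of all genes did the same.

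**Figure D2:**
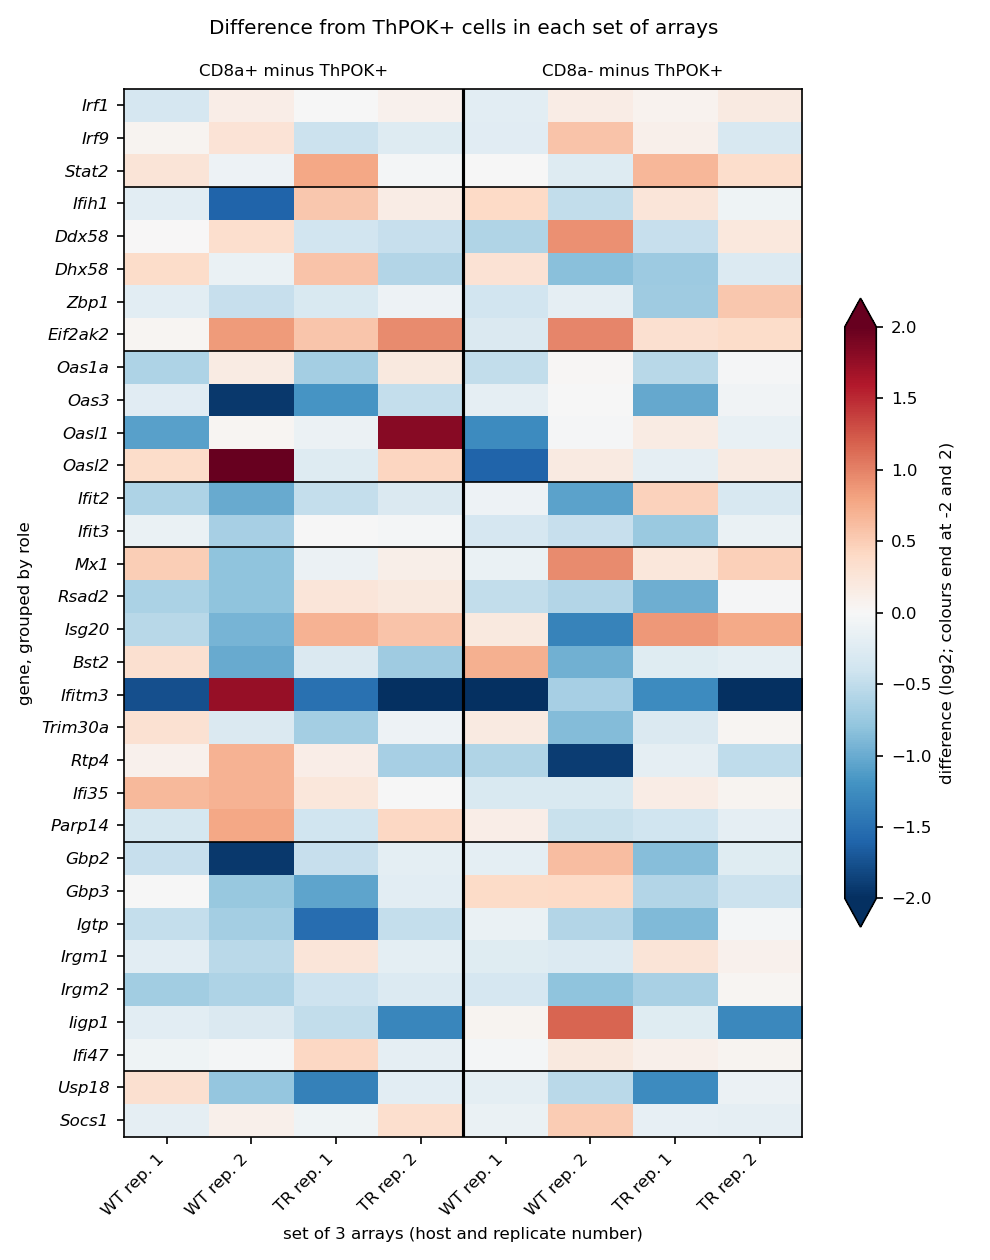
Difference in log2 signal from the ThPOK+ cells of the same set for the 32 measured genes (listed downwards by role, with lines between roles), for CD8a+ cells (left 4 columns) and CD8a- cells (right 4 columns) of each host and replicate number, with the host names of the intensity table. Blue is lower than in ThPOK+ cells, and Igtp is below 0 in all 4 sets on both sides (close to 0 for CD8a- cells of TR replicate 2), while Ifitm3 is blue in 3 of 4 sets on the left, the exception being WT replicate 2.

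CD8a- cells, which have lost ThPOK without taking up CD8a, were compared with the same ThPOK+ arrays, so this comparison shares its control arrays with the first. Here limma called 0 of 32 genes, against 6 of 10612 (0.0565%), and the smallest adjusted p was 0.503. At an unadjusted p under 0.05 stood 3 genes, all lower in CD8a- cells (Ifitm3, Irgm2 and Ifit3), against 8.64% of all genes, with 4.18% lower. The estimates were below 0 for 22 genes and above 0 for 10, with a median of -0.18 beside 0.0057 over all genes, of which 49.1% were below 0. Lower in 4 of 4 sets were 7 genes (Oas3, Ifit3, Rsad2, Ifitm3, Rtp4, Igtp and Usp18), against 8.37% of all genes, and 0 were higher in 4 of 4 sets, against 9.58%. Rsad2 and Usp18 were detected on 0 of 4 CD8a- arrays and on 2 and 1 of 4 ThPOK+ arrays. Some of their signs therefore compare values below detection.

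The CD8a+ and CD8a- cells, which both lack ThPOK, were also compared with each other. In this comparison limma called 0 of 32 interferon-stimulated genes and 0 of 10612 genes (0%), with a smallest adjusted p of 0.895 among the 32. At an unadjusted p under 0.05 were 3 genes, all higher in CD8a+ cells (Ifi35, Oasl2 and Rtp4), against 5.12% of all genes, with 2.43% higher. Estimates were above 0 for 15 genes and below 0 for 17, and their median was -0.056, beside -0.0076 over all genes, of which 51.3% were below 0. In 4 of 4 sets 5 genes were lower in CD8a+ cells (Irf1, Oas3, Bst2, Igtp and Iigp1), against 7.32% of all genes, and 0 were higher, against 6.98%. Here Iigp1 was detected on 0 of 4 CD8a+ and 1 of 4 CD8a- arrays, and Bst2 on 2 of 4 and 3 of 4.

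In the values that follow, the 4 arrays of a subset are given in the order WT replicate 1, WT replicate 2, TR replicate 1 and TR replicate 2, and a difference is followed by its standard error from limma, with 4 arrays of each subset. Among the transcription factors, 3 of 4 were measured and none was called in a comparison of subsets. Stat2, which acts in the type I response, had signals of 7.85, 7.77, 7.56 and 7.69 in ThPOK+ cells, 7.84, 7.51, 8.22 and 8.04 in CD8a- cells and 8.10, 7.68, 8.33 and 7.66 in CD8a+ cells. The subsets overlapped, with the TR arrays of replicate 1 highest outside the ThPOK+ cells. The CD8a- minus ThPOK+ difference was 0.19 ± 0.20 (adjusted p = 0.843), and it was 0.017 without the TR ThPOK+ array of replicate 1 and 0.32 without the WT ThPOK+ array of replicate 2. Irf1, a factor induced by interferon-gamma, had signals of 11.20, 10.67, 10.96 and 10.58 in ThPOK+ cells, 10.99, 10.82, 11.03 and 10.76 in CD8a- cells and 10.87, 10.80, 10.96 and 10.66 in CD8a+ cells. Its subset means were 10.85 ± 0.28, 10.90 ± 0.13 and 10.82 ± 0.12 (SD, n = 4), which overlapped fully. Irf9, the DNA-binding partner of STAT2, also differed by less than its standard error in all 3 comparisons, at most by -0.12 ± 0.19 (CD8a+ minus CD8a-).

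Of the sensors and the kinase, 5 of 5 were measured. Eif2ak2 encodes PKR, which stops translation on sensing double-stranded RNA. Its signals were 10.06, 9.0, 9.76 and 9.07 in ThPOK+ cells, 9.77, 9.98, 10.07 and 9.44 in CD8a- cells and 10.09, 9.85, 10.31 and 10.01 in CD8a+ cells. The 2 ThPOK+ arrays of replicate 2 were the lowest of the 12, and the ThPOK+ and CD8a+ arrays overlapped through WT replicate 1. The CD8a+ minus ThPOK+ difference was 0.59 ± 0.21 (95% interval 0.12 to 1.07, adjusted p = 0.368), and for CD8a- minus ThPOK+ it was 0.34 ± 0.21 (adjusted p = 0.681). The latter was 0.18 without the WT CD8a- array of replicate 2, 0.20 without the WT ThPOK+ array of replicate 2 and 0.54 without the WT ThPOK+ array of replicate 1. Ddx58 encodes RIG-I, a sensor of viral RNA ends. It gave 8.41, 7.82, 9.14 and 8.53 in ThPOK+ cells, 7.82, 8.74, 8.68 and 8.73 in CD8a- cells and 8.42, 8.15, 8.75 and 8.07 in CD8a+ cells, with full overlap between the subsets. The RNA sensors Ifih1 (MDA5) and Dhx58 (LGP2), detected on 7 and 5 arrays, and the nucleic acid sensor Zbp1, detected on all 12, had CD8a+ minus ThPOK+ estimates of -0.28, 0.053 and -0.27, none called.

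The oligoadenylate synthetases make the second messenger that activates RNase L, and 4 of 5 family members were measured. Oas3 had signals of 8.01, 9.23, 8.31 and 8.86 in ThPOK+ cells, 7.83, 9.22, 7.29 and 8.78 in CD8a- cells and 7.78, 7.31, 7.13 and 8.38 in CD8a+ cells. Within every set its CD8a+ signal was the lower of the pair with ThPOK+ cells, but the TR CD8a+ array of replicate 2 lay above the 2 lowest ThPOK+ arrays. The CD8a+ minus ThPOK+ difference was -0.95 ± 0.32 (95% interval -1.67 to -0.24, adjusted p = 0.322), and for CD8a+ minus CD8a- it was -0.63 ± 0.32 (adjusted p = 0.895). Without the WT CD8a+ array of replicate 2, 1 of the 2 with high epithelial markers and among the lowest for Oas3, these differences were -0.58 and -0.26, and the second was -0.37 without the WT CD8a- array of replicate 2.

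Oasl2, an oligoadenylate synthetase-like gene, was represented by a probe detected on 3 of 12 arrays, which read 7.16 (WT ThPOK+ replicate 1), 7.53 (WT CD8a+ replicate 1) and 8.11 (WT CD8a+ replicate 2). The other 9 arrays read 5.14 to 5.58, and with this probe no CD8a- or TR array reached detection. The measured CD8a+ minus CD8a- difference was 1.21 ± 0.51 (adjusted p = 0.895), with means of 6.62 and 5.41, and 2 of 4 CD8a+ arrays against 0 of 4 CD8a- arrays were detected, so the CD8a- level has only an upper bound. The mean signal of the epithelial markers was 9.53, 7.41 and 9.20 on the 3 arrays with detection and 5.94 to 7.41 on the other 9. Without the 2 arrays of highest epithelial signal the measured CD8a+ minus CD8a- difference was 0.66, and without the WT CD8a+ array of replicate 2 alone it was 0.63. A further Oasl2 probe, detected on the WT and the TR ThPOK+ array of replicate 1, gave a CD8a+ minus ThPOK+ estimate of -0.54, opposite to the 0.86 of the brighter probe, which was 0.27 without the WT CD8a+ array of replicate 2 and 0.43 without the WT ThPOK+ array of replicate 2. Oas1a was detected on 2 arrays only, with 5.49, 4.96, 5.84 and 5.14 in ThPOK+ cells, 5.0, 4.99, 5.28 and 5.11 in CD8a- cells and 4.86, 5.13, 5.17 and 5.33 in CD8a+ cells. Both detections were in ThPOK+ cells of replicate 1, and the undetected arrays give only a bound.

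The IFIT proteins bind viral RNA and block its translation, and 2 of 3 were measured. Ifit2 had signals of 7.62, 8.31, 7.97 and 8.06 in ThPOK+ cells, 7.52, 7.24, 8.43 and 7.73 in CD8a- cells and 7.01, 7.31, 7.49 and 7.76 in CD8a+ cells. It was lower in CD8a+ cells within every set, with 1 CD8a+ array above the lowest ThPOK+ array. The CD8a+ minus ThPOK+ difference was -0.60 ± 0.23 (adjusted p = 0.442). Ifit3 had signals of 7.74, 9.24, 8.12 and 8.32 in ThPOK+ cells, 7.40, 8.78, 7.38 and 8.19 in CD8a- cells and 7.60, 8.58, 8.11 and 8.29 in CD8a+ cells. The arrays of replicate 2 were higher than those of replicate 1 in all 3 subsets, and the subsets overlapped. Its CD8a- minus ThPOK+ difference was -0.42 ± 0.18 (adjusted p = 0.562), or -0.28 without the TR CD8a- array of replicate 1. Each of these genes had a further probe with the same sign of the mean CD8a+ minus ThPOK+ difference, -0.94 for Ifit2 and -0.30 for Ifit3. The further Ifit2 probe was detected on 10 of 12 arrays, with -2.55 in WT replicate 2 and -0.75 to -0.099 in the other sets. The further Ifit3 probe was detected on 3 of 12 arrays, with 0.21 in WT replicate 2, so its sign mostly compares values below detection.

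Among 12 further antiviral effectors 9 were measured. Ifitm3, which blocks the fusion of viruses with endosomal membranes, had signals of 9.21, 5.75, 6.96 and 7.83 in ThPOK+ cells, 7.18, 5.09, 5.71 and 5.66 in CD8a- cells and 7.44, 7.48, 5.47 and 5.33 in CD8a+ cells. The highest value was on the WT ThPOK+ array of replicate 1, which also had the highest epithelial marker signal (9.53). The CD8a- minus ThPOK+ difference was -1.53 ± 0.57 (95% interval -2.81 to -0.25, adjusted p = 0.503), negative in 4 of 4 sets, and it was -1.45 without the 2 arrays of highest epithelial signal. For CD8a+ minus ThPOK+ it was -1.01 ± 0.57 (adjusted p = 0.632), negative in 3 of 4 sets. Ifitm3 was detected on 7 of 12 arrays: 3 of 4 ThPOK+, 2 of 4 CD8a- and 2 of 4 CD8a+ arrays. Its differences therefore include values below detection.

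Rtp4, an interferon-induced chaperone of membrane receptors, had signals of 6.62, 8.38, 7.53 and 7.44 in ThPOK+ cells, 6.01, 6.48, 7.36 and 6.93 in CD8a- cells and 6.71, 9.08, 7.67 and 6.77 in CD8a+ cells. The highest of these was again an array with high epithelial markers (WT CD8a+ replicate 2, 9.20). Its CD8a+ minus CD8a- difference was 0.86 ± 0.38 (adjusted p = 0.895), or 0.47 without that array and 0.39 without the WT CD8a- array of replicate 2. Ifi35, which forms a complex with the interferon-induced protein Nmi, was detected on 5 arrays, all of replicate 1, and read 5.70, 5.63, 5.76 and 5.45 in ThPOK+ cells, 5.4, 5.33, 5.90 and 5.5 in CD8a- cells and 6.35, 6.33, 5.99 and 5.44 in CD8a+ cells. The 2 WT CD8a+ arrays (host names of the intensity table) were the highest, and the difference from CD8a- cells was 0.50 ± 0.21 (adjusted p = 0.895). Ifi35 was detected on 2 of 4 CD8a+ and 1 of 4 CD8a- arrays, so this difference includes values below detection. Among these is the 6.33 of the WT CD8a+ array of replicate 2, the array with high epithelial markers.

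Mx1, a dynamin-like antiviral GTPase, was detected on 1 CD8a- and 1 CD8a+ array and on no ThPOK+ array. It read 5.17, 6.22, 5.07 and 5.47 in ThPOK+ cells, 5.03, 7.16, 5.29 and 5.95 in CD8a- cells and 5.67, 5.41, 4.95 and 5.59 in CD8a+ cells, and the CD8a- minus ThPOK+ estimate was 0.38 ± 0.31 (adjusted p = 0.783). That estimate was 0.064 without the WT CD8a- array of replicate 2 and 0.64 without the WT CD8a- array of replicate 1. Rsad2, which encodes viperin, was detected on 3 arrays and read 5.54, 5.97, 6.38 and 5.14 in ThPOK+ cells, 5.04, 5.38, 5.4 and 5.12 in CD8a- cells and 4.92, 5.16, 6.63 and 5.34 in CD8a+ cells. The exonuclease gene Isg20, the tetherin gene Bst2, Trim30a and the ADP-ribosyltransferase gene Parp14 had CD8a+ minus ThPOK+ estimates between -0.42 (Bst2) and 0.11 (Parp14), none called.

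The interferon-inducible GTPases, which attack the vacuoles of intracellular microbes, were all measured, 7 of 7. For CD8a+ minus ThPOK+ cells 6 were below 0 and 1 (Ifi47) above, with a median of -0.51 and 0 called, and for CD8a- minus ThPOK+ cells 6 were below 0 with a median of -0.074. For CD8a+ minus CD8a- cells 7 of 7 were below 0, beside 51.3% of all genes, with a median of -0.39 and 0 called. Irgm2 (-0.057) and Ifi47 (-0.056) were close to 0, and Iigp1 was detected on 0 of 4 CD8a+ and 1 of 4 CD8a- arrays. Gbp2 was -2.55 in WT replicate 2 and -0.27 in WT replicate 1, but 0.39 and 0.046 in TR replicates 1 and 2. Igtp, an immunity-related GTPase, had signals of 8.95, 8.72, 9.25 and 8.77 in ThPOK+ cells, 8.82, 8.13, 8.37 and 8.74 in CD8a- cells and 8.47, 8.05, 7.72 and 8.29 in CD8a+ cells. All 4 CD8a+ arrays lay below all 4 ThPOK+ arrays. The CD8a- arrays at 8.82 and 8.74 fell within the ThPOK+ range, and those at 8.13 and 8.37 within the CD8a+ range. The CD8a+ minus ThPOK+ difference was -0.79 ± 0.20 (95% interval -1.25 to -0.33, adjusted p = 0.167), and for CD8a- minus ThPOK+ it was -0.41 ± 0.20 (adjusted p = 0.618). For CD8a+ minus CD8a- cells it was -0.39, or -0.22 without the TR CD8a+ array of replicate 1.

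Irgm2, a regulatory immunity-related GTPase, had signals of 9.21, 8.92, 9.40 and 8.57 in ThPOK+ cells, 8.87, 8.11, 8.75 and 8.60 in CD8a- cells and 8.52, 8.30, 8.99 and 8.30 in CD8a+ cells. The highest CD8a+ array exceeded the 2 lowest ThPOK+ arrays, so the subsets overlapped. Its difference from ThPOK+ cells was -0.50 ± 0.18 in CD8a+ cells (adjusted p = 0.368) and -0.44 ± 0.18 in CD8a- cells (adjusted p = 0.528). Irgm1, which guards host membranes against the other immunity-related GTPases, read 11.53, 11.78, 11.32 and 11.56 in ThPOK+ cells, 11.29, 11.50, 11.58 and 11.65 in CD8a- cells and 11.31, 11.25, 11.56 and 11.37 in CD8a+ cells. The subset means of 11.55 ± 0.19, 11.51 ± 0.16 and 11.37 ± 0.14 (SD, n = 4) overlapped within their spread, with a CD8a+ minus ThPOK+ difference of -0.17 ± 0.16 (adjusted p = 0.798).

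The guanylate-binding proteins Gbp2 and Gbp3 coat bacterial and parasite vacuoles. Gbp2 had signals of 8.51, 7.92, 9.07 and 8.88 in ThPOK+ cells, 8.32, 8.54, 8.22 and 8.65 in CD8a- cells and 8.04, 5.99, 8.62 and 8.69 in CD8a+ cells. The WT CD8a+ array of replicate 2, 1 of the 2 with high epithelial markers, stood far below the other 11, and the part of these markers in the result was not tested. The CD8a+ minus ThPOK+ difference was -0.76 ± 0.41 (adjusted p = 0.601). Gbp2 was detected on 11 of 12 arrays and 3 of 4 CD8a+ arrays, so its lowest value has only an upper bound. Gbp3 had signals of 8.38, 8.18, 8.93 and 8.35 in ThPOK+ cells, 8.77, 8.58, 8.34 and 7.92 in CD8a- cells and 8.36, 7.43, 7.88 and 8.13 in CD8a+ cells. It too was lowest on that array, and the CD8a+ cells differed by -0.51 ± 0.25 from ThPOK+ cells (adjusted p = 0.55) and by -0.45 ± 0.25 from CD8a- cells (adjusted p = 0.895), the latter being -0.29 without that array and -0.26 without the WT CD8a- array of replicate 2. Iigp1 was detected on 2 arrays and on no CD8a+ array, and Ifi47 had subset means of 9.33 ± 0.26, 9.41 ± 0.32 and 9.35 ± 0.23 (SD, n = 4).

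**Figure D3:**
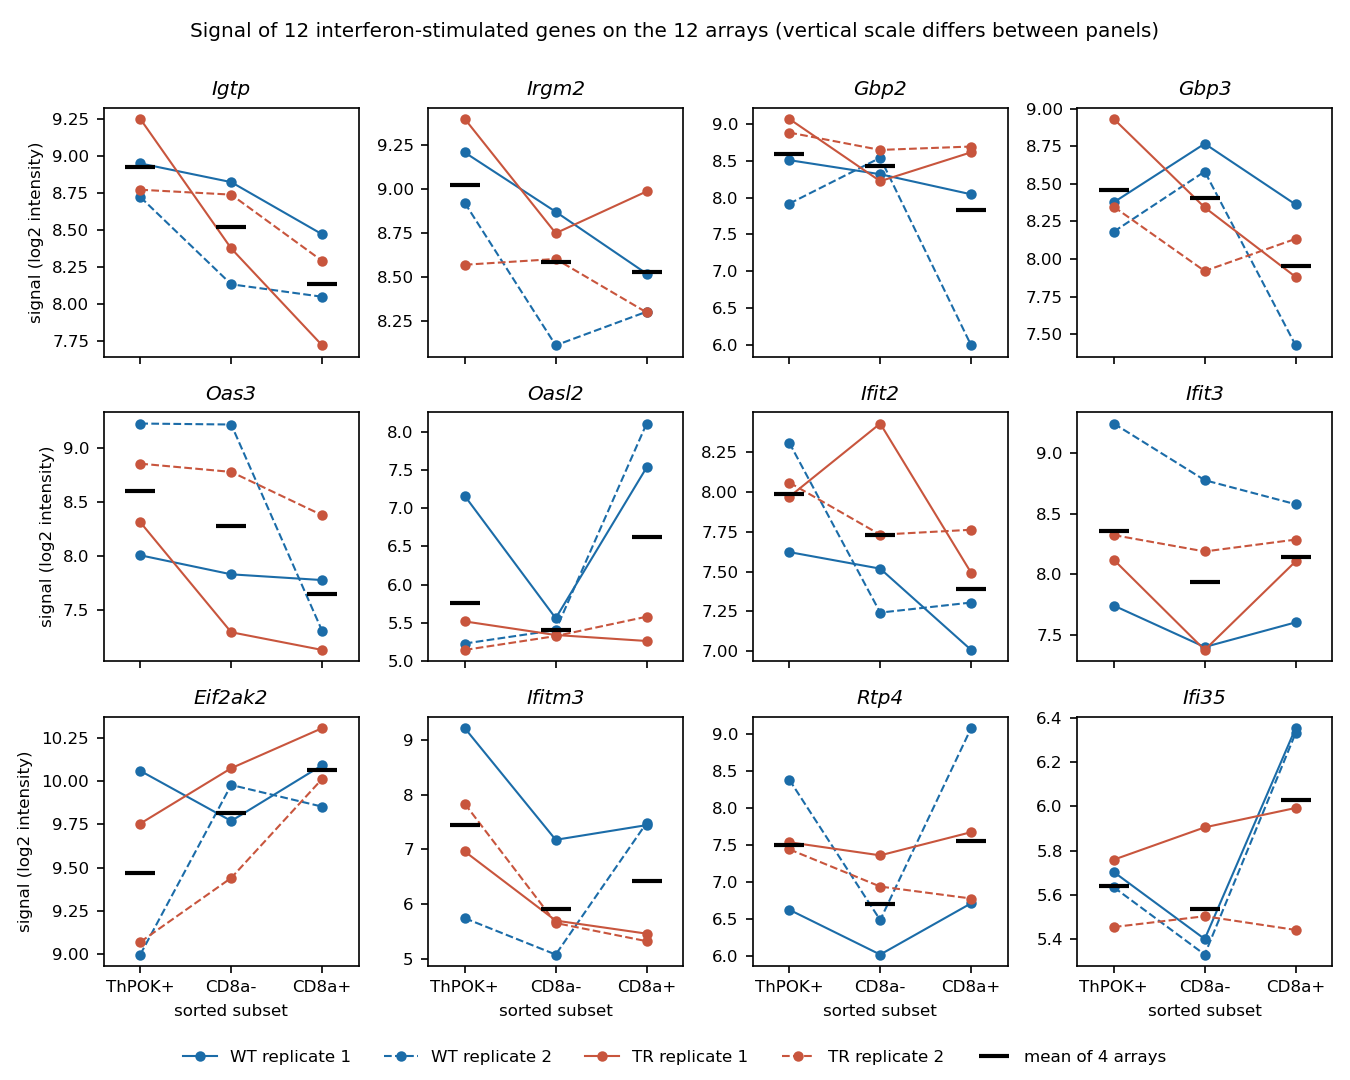
Log2 signal of 12 interferon-stimulated genes on the 12 arrays by sorted subset, with 1 line per set of 3 arrays (WT blue, TR red, replicate 1 solid, replicate 2 dashed; host names of the intensity table) and black bars for the mean of 4 arrays; the vertical scale differs between panels. Igtp is the panel in which the 4 CD8a+ points (7.72 to 8.47) lie below the 4 ThPOK+ points (8.72 to 9.25), and Oasl2 has 3 points above 7 and 9 points under 5.6.

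Of the feedback genes, Usp18 removes ISG15 from proteins and restrains the type I receptor, and Socs1 inhibits the receptor kinases. Usp18 was detected on 2 arrays and read 5.32, 5.74, 6.38 and 5.19 in ThPOK+ cells, 5.12, 5.21, 5.12 and 5.07 in CD8a- cells and 5.64, 4.97, 5.02 and 4.98 in CD8a+ cells. Its differences from ThPOK+ cells, -0.50 ± 0.26 in CD8a+ cells (adjusted p = 0.576) and -0.53 ± 0.26 in CD8a- cells (adjusted p = 0.606), include arrays below detection. Socs1, detected on 5 arrays, had subset means of 5.99 ± 0.36, 6.0 ± 0.64 and 6.04 ± 0.55 (SD, n = 4). Several detected probes were available for 9 genes, and their estimates for CD8a+ minus ThPOK+ cells had the same sign for 5 of them (Gbp2, Gbp3, Ifit2, Ifit3 and Irgm1) and mixed signs for 4 (Irf1, Irf9, Oasl2 and Zbp1). A probe counted here when detected on 2 or more arrays, so some of these signs compare values below detection.

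Recipients with colitis were then compared with unmanipulated reporter mice. The 2 deposited tables give the hosts of replicate 1 the opposite way round: differences between arrays of 1 set were equal across the tables, within 1e-05 on the log2 scale, only under the other host's label for replicate 1 and under the same label for replicate 2. The host comparisons are therefore given under both namings, and which of them is right cannot be told from these files. The comparisons of subsets above are the same under both. With the names of the intensity table, limma called 0 of 32 interferon-stimulated genes and 0 of 10612 genes (0%) for TR minus WT cells over all subsets, and 2 of 32 had an unadjusted p under 0.05, against 9.64% of all genes. The estimates were above 0 for 15 genes and below 0 for 17, with a median of -0.0076 beside 0.030 over all genes. With the hosts of replicate 1 exchanged, 0 of 32 were called, against 8 of 10612 (0.0754%), 4 of 32 had an unadjusted p under 0.05, against 9.06% of all genes, and the median was -0.080 beside 0.0100.

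Gbp2 had the smallest p among genes higher in TR cells under the names of the intensity table, with a difference of 0.80 ± 0.31 (6 arrays against 6, adjusted p = 0.473). TR minus WT was 2.70 in the CD8a+ pair of replicate 2 and -0.094 to 0.97 in the other 5 pairs, and the difference was 0.46 without the WT CD8a+ array of replicate 2. That array was the one on which Gbp2 was not detected. With the hosts of replicate 1 exchanged the difference was 0.46 ± 0.43 (adjusted p = 0.784). Oasl2 had a difference of -1.14 ± 0.31 (adjusted p = 0.318), and the 3 arrays on which its brighter probe was detected all bore the WT name in the intensity table. Under the exchange the difference was 0.24 ± 0.58 (adjusted p = 0.922), of opposite sign. Without the 2 arrays of highest epithelial signal the Oasl2 difference under the names of the intensity table was -0.72.

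Among the 3 smallest p in each direction were also Ifit2 (0.41 ± 0.20, adjusted p = 0.545) and Ddx58 (0.42 ± 0.23, adjusted p = 0.588), higher in TR cells, and Ifitm3 (-0.86 ± 0.53, adjusted p = 0.624) and Mx1 (-0.39 ± 0.28, adjusted p = 0.686), lower in TR cells, under the names of the intensity table. Single arrays moved each of these 4 values. Ifitm3 was -0.33 without the WT ThPOK+ array of replicate 1, -0.53 without the TR ThPOK+ array of replicate 1 and -1.40 without the WT ThPOK+ array of replicate 2. Mx1 ranged from -0.11 without the WT CD8a- array of replicate 2 to -0.66 without the WT CD8a- array of replicate 1. Under the names of the intensity table Mx1 was detected on 2 of 6 WT arrays and 0 of 6 TR arrays. Its TR level therefore has only an upper bound, and most of its pairs compare values below detection. Ddx58 was 0.20 without the WT CD8a- array of replicate 1 and 0.64 without the WT CD8a- array of replicate 2, and Ifit2 was 0.25 without the TR CD8a- array of replicate 1. For Ifitm3, Ifit2 and Ddx58 the sign was the opposite with the hosts of replicate 1 exchanged, at 1.03 ± 0.48, -0.17 ± 0.25 and -0.21 ± 0.27, and Mx1 stayed negative at -0.20 ± 0.25. Under the exchange the 4 genes with unadjusted p under 0.05 were Rtp4 (-1.0 ± 0.29, adjusted p = 0.315), Ifit3 (-0.44 ± 0.16, adjusted p = 0.499), Rsad2 (-0.64 ± 0.24, adjusted p = 0.504) and Isg20 (0.71 ± 0.28, adjusted p = 0.516).

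The host difference had the same sign in replicate 1 and replicate 2 for 15 of 32 genes (46.9%), beside 50.7% of all genes, under the names of the intensity table. In 6 of 6 pairs of arrays Oas1a was higher in TR cells, against a background of 3.7% of genes, and Oasl2 was lower, against 3.01%. Oas1a was detected on 2 of the 12 arrays, 1 of each host, so most of its pairs compare values below detection. Oasl2 was detected on 3 of the 12 arrays, and its pairs without these arrays also compare values below detection. Under the exchange 0 of 32 genes had 1 sign in 6 of 6 pairs, against 3.38% of genes higher and 2.68% lower. Within ThPOK+, CD8a- and CD8a+ cells taken separately, with 2 arrays against 2, limma called 0 of 32 genes and 0 of 10612 (0%) under both namings. Unadjusted p under 0.05 was reached there by 0, 0 and 3 of 32 genes with the names of the intensity table, against 4.59%, 4.29% and 7.4% of all genes, and by 2, 1 and 2 under the exchange, against 5.07%, 5.57% and 5.98%. The interaction test of whether the CD8a+ minus ThPOK+ difference depends on the host called 0 of 32 genes (0 of 10612, 0%, under both namings). Unadjusted p under 0.05 was found there for 0 of 32 genes, against 3.3%, or 1 of 32 under the exchange, against 3.74%.

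**Figure D4:**
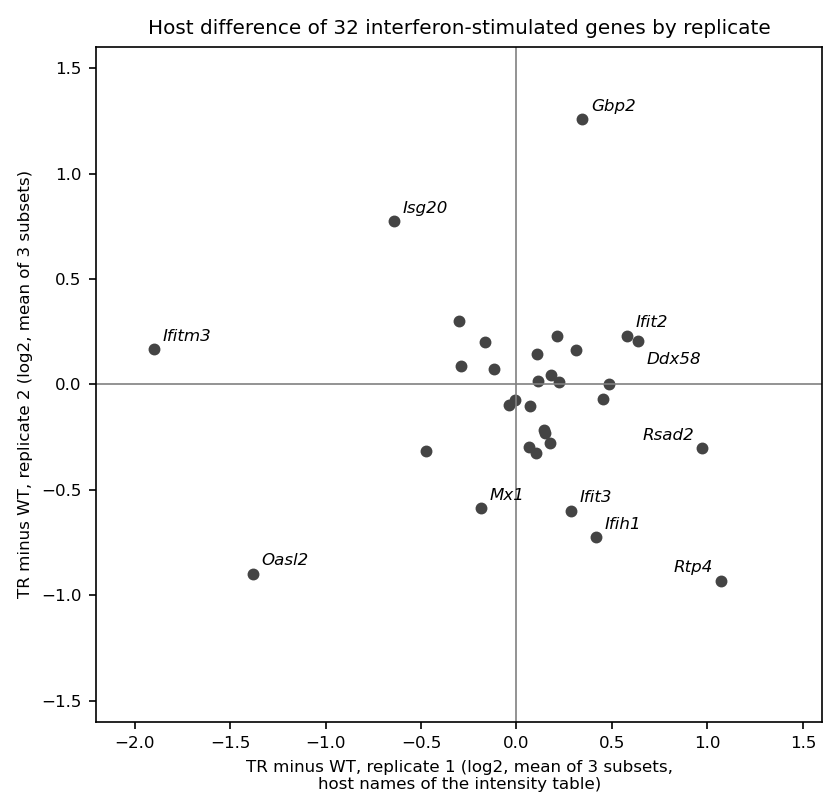
TR minus WT difference in log2 signal, averaged over the 3 subsets, for the 32 measured genes in replicate 1 (horizontal axis, host names of the intensity table) and replicate 2 (vertical axis); exchanging the hosts of replicate 1 mirrors the horizontal axis. The 15 genes of the lower left and upper right parts had the same sign in both replicates, and Oasl2 and Gbp2 are the farthest from 0 among them.

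The arrays of the 2 replicate numbers were themselves separate for some genes, among the 32 interferon-stimulated genes and among all genes alike. The 6 arrays of replicate 2 lay entirely above the 6 arrays of replicate 1 for 4 of 32 genes, against a background of 981 of 10612 genes (9.24%). These were Bst2 (by 2.60), Iigp1 (1.20), Ifit3 (0.84) and Socs1 (0.82). In replicate 1 and replicate 2, Bst2 was detected on 2 and 6 of 6 arrays, Iigp1 on 0 and 2 and Socs1 on 3 and 2. The differences of these genes thus include values below detection, while Ifit3 was detected on all arrays. For 1 of 32 genes, Irf1 (by -0.29), the arrays of replicate 2 lay entirely below, against 851 of 10612 genes (8.02%). Bst2 had signals of 5.01 to 5.71 in replicate 1 and 7.50 to 8.78 in replicate 2. The median size of the difference between the replicate numbers was 0.35 among the 32 genes and 0.42 among all genes.

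Other genes of the pathway were read from a list of 103, of which 88 were on the array and 74 were measured. Across the 3 comparisons of subsets and the host comparison limma called 0 of 74. At an unadjusted p under 0.05 were 10 genes for CD8a+ minus ThPOK+ cells (3 higher, 7 lower), against 9.77% of all genes, 9 for CD8a- minus ThPOK+ (4 higher, 5 lower), against 8.64%, and 5 for CD8a+ minus CD8a- (1 higher, 4 lower), against 5.12%. For TR minus WT there were 4 under the names of the intensity table (3 higher, 1 lower), against 9.64% of all genes. With the hosts of replicate 1 exchanged 0 of 74 were called, and 8 higher and 5 lower had an unadjusted p under 0.05, against 9.06%. Among the ligands, Ifng, which encodes interferon-gamma, was detected on 12 of 12 arrays, Ifna1 on 3, Ifnb1 and Ifne on 1 each, and Ifna2, Ifna4 and Ifnk on 0. Ifng had signals of 10.47, 10.17, 10.14 and 10.82 in ThPOK+ cells, 11.22, 11.01, 10.97 and 11.02 in CD8a- cells and 11.18, 11.04, 10.87 and 11.01 in CD8a+ cells. All 8 arrays of cells lacking ThPOK lay above the 4 ThPOK+ arrays, as 1.57% (CD8a+) and 1.38% (CD8a-) of all genes did in either comparison, but the differences did not pass the test, at 0.63 ± 0.16 for CD8a+ cells (adjusted p = 0.169) and 0.66 ± 0.16 for CD8a- cells (adjusted p = 0.244).

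The receptor and kinase genes were all measured, 9 of 9, and 0 had an unadjusted p under 0.05 in the comparisons of subsets. The interferon-gamma receptor genes Ifngr1 and Ifngr2 and the type I receptor gene Ifnar2 were detected on 12 of 12 arrays and Ifnar1 on 6. Apol9b, an interferon-induced apolipoprotein gene, had the smallest p of the list in the comparisons of subsets. It was at 1.96 ± 0.40 for CD8a+ minus ThPOK+ cells (adjusted p = 0.0719) and 1.93 ± 0.40 for CD8a- minus ThPOK+ cells (adjusted p = 0.139). Its signals were 8.31, 5.92, 7.23 and 6.12 in ThPOK+ cells, 8.90, 9.35, 8.58 and 8.47 in CD8a- cells and 9.33, 8.72, 8.58 and 8.79 in CD8a+ cells. All 8 arrays of the cells lacking ThPOK were above the 4 ThPOK+ arrays, which themselves spread widely.

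Next by p for CD8a+ minus ThPOK+ cells were Cxcl10 (-1.39 ± 0.34, adjusted p = 0.147), a chemokine gene detected on 3 of 12 arrays, and Ly6a (-1.84 ± 0.48, adjusted p = 0.168), which encodes the surface antigen Sca-1. Cxcl10 was detected on 0 of 4 CD8a+ arrays and 2 of 4 ThPOK+ arrays, so its level in CD8a+ cells has only an upper bound. Ly6a was lower in CD8a+ cells in 4 of 4 sets and read 11.06, 10.46, 10.65 and 11.40 in ThPOK+ cells against 10.55, 8.55, 6.88 and 10.23 in CD8a+ cells, so the groups overlapped by 1 array. For CD8a- minus ThPOK+ cells the third by p was Samhd1 (-0.68 ± 0.20, adjusted p = 0.355), which encodes a deoxynucleotide hydrolase that restricts retroviruses. Mavs (-0.80 ± 0.20), the adaptor of the RNA sensors, Myd88 (1.31 ± 0.44), an adaptor of Toll-like receptors, and Ptpn6 (-0.67 ± 0.26), a phosphatase that damps cytokine signals, had the smallest p for CD8a+ minus CD8a- cells, each with an adjusted p of 0.895. Mavs was detected on 7 of 12 arrays, so its difference includes values below detection. Myd88 was higher in CD8a+ cells in 4 of 4 sets. Its signal was 5.19 on the WT CD8a- array of replicate 2 and 6.88 to 7.63 on the other CD8a- arrays. For TR minus WT the genes with the smallest p were Irf8 (-0.62 ± 0.24, adjusted p = 0.473), Ikbke (0.40 ± 0.15, adjusted p = 0.474) and Gbp5 (0.46 ± 0.19, adjusted p = 0.485), under the names of the intensity table. With the hosts of replicate 1 exchanged these 3 were -0.30 ± 0.39, -0.12 ± 0.20 and -0.34 ± 0.21. Irf8, Ikbke and Gbp5 were detected on 4, 5 and 3 of 12 arrays, so their differences include values below detection. The highest Irf8 signal, 7.34, was on the WT CD8a+ array of replicate 2, 1 of the 2 with high epithelial markers. The other arrays read 5.04 to 6.19 for Irf8. Under the exchange the smallest p belonged to Ly6a (1.95 ± 0.34, adjusted p = 0.137), Plscr1 (-0.75 ± 0.16, adjusted p = 0.185) and Tap2 (0.66 ± 0.17, adjusted p = 0.276). Under the names of the intensity table Ly6a, Plscr1 and Tap2 were at -0.59 ± 0.76, -0.015 ± 0.34 and 0.085 ± 0.27.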

How the data were processed

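RNA of 12 sorted cell samples was measured on 12 one-colour Illumina bead arrays. Bead intensities averaged for each probe were deposited as an unnormalized export of GenomeStudio 1.0.6, per the file headers. Beside each intensity the deposited file gives a detection score, a fraction from 0 to 1 that rises with signal; 1 minus this score was used as the detection p-value. A second deposited table holds log2 values centred within each set of 3 arrays (found by setting it against the intensities). Its row names matched no probe column, so it served only to compare host names.

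Intensities were corrected and normalized with neqc (offset 16, quantile, log2) in limma 3.58.1 (R 4.3.3). Probes detected at p under 0.05 on 2 or more of 12 arrays were kept (14635 of 25697), and the brightest stood for each gene, which left 10612 genes. Gene names follow the RefSeq table of build GRCm38.p6: 20736 probes carried a current symbol, 3841 an older one and 1120 kept the name in the file. Irgm2 was found as IIGP2, Trim30a as TRIM30 and the measured Iigp1 probe as AW111922. The files name no genome build. Arrays give no read depth, so their number limits the precision.

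Subsets were compared by limma on 12 arrays with the 4 sets as a fixed block (6 residual degrees of freedom). Hosts were compared with 6 group means and the replicate number as a block (5 residual degrees of freedom). Tests were two-sided with Benjamini-Hochberg adjustment over all genes and a threshold of 0.05. The 3 arrays of a set may share animals, so host p-values may be too small. The numbers were treated as pairs because of the data, not the labels: the differences between replicates correlated across genes in all 15 pairs of groups (r from 0.36 to 0.66). On simulated data with the subset design and 10612 genes, 76% and 78% of genes changed by -2 and 2 were called, and 54% and 34% of those changed by -1 and 1. For the host design these were 86% and 90%, and 70% and 56%. False calls numbered 5 in the subset design and 11 in the host design. The share called in the host design with the arrays of a set varying together was not tested.

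The members and lists were chosen with earlier results of these data known. Array values are given for genes past the threshold, for the 3 with the smallest p each way in each of the 4 main comparisons, and for the 3 highest and 3 lowest mean signals. Genes given beyond this rule belong to a named count, a list or a role and were chosen after their values were seen. Alternatives covered the block, background, normalization, filter, probe choice, array weights, host names and each array left out. An item withheld for evaluation is not reported here.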

Additional observations from a re-analysis of the deposited data

Results flagged for a closer look

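In 5 of the 96 combinations of gene and subset examined, 1 of 4 arrays stood apart from the other 3 by more than Dixon's 95% critical ratio for 4 values, and chance marks about 1 in 20 such groups. Ifih1 read 5.4 on the TR CD8a- array of replicate 2, the nearest of the other CD8a- arrays being 6.41. Ddx58 read 7.82 on the WT CD8a- array of replicate 1, against 8.68 on the nearest. Isg20 read 7.74 on the TR CD8a+ array of replicate 2, against 6.80. Parp14 read 8.54 on the TR ThPOK+ array of replicate 1, against 7.91. Usp18 read 5.64 on the WT CD8a+ array of replicate 1, against 5.02.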

How the results depend on the processing

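The comparisons were repeated under 25 alternatives (26 for hosts), of which the plain log2 signal, the omission of the 2 arrays of highest epithelial signal and the 6 arrays of 1 replicate number alone were chosen after the data were seen. In each comparison of subsets 0 of 32 interferon-stimulated genes passed the threshold under all 25, with smallest adjusted p-values of 0.0693 (CD8a+ minus ThPOK+), 0.0767 (CD8a- minus ThPOK+) and 0.758 (CD8a+ minus CD8a-). For TR minus WT the count was 0 in 25 of 26 and ranged from 0 to 1 with 1 array left out: without the WT ThPOK+ array of replicate 2, Oasl2 was -1.47 (adjusted p = 0.0491). Without the replicate block, and with a block for the number instead of the set, 0 members were called in every comparison. The median over members for CD8a+ minus ThPOK+ was -0.18, and became -0.11 with plain log2 signals, -0.084 with no filter and -0.29 in replicate 2 alone, with a range of -0.25 to -0.10 on leaving out 1 array (the smallest without the WT ThPOK+ array of replicate 2). The median for CD8a+ minus CD8a- was -0.056, and became -0.103 for genes detected on 6 arrays or more, -0.0089 for the mean of a gene's probes and 0.0076 in replicate 1 alone, with a range of -0.076 to 0.0024 on leaving out 1 array. With the hosts of replicate 1 exchanged, the TR minus WT median was -0.076 within CD8a- cells (0.020 before) and -0.077 within CD8a+ cells (0.12 before). That exchange reversed Ifit2 (-0.17), Ddx58 (-0.21), Oasl2 (0.24) and Ifitm3 (1.03), and in replicate 2 alone Ifitm3 was 0.17. The cause was not tested.

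Counts over all genes moved more. For CD8a+ minus ThPOK+ 62 genes passed, and 0 (only the arrays compared) to 118 (normexp with offset 50) under the alternatives, with 19 without the replicate block, 29 with a block for the number only, 23 without the 2 arrays of highest epithelial signal and 2 to 80 on leaving out 1 array (2 without the TR ThPOK+ array of replicate 1). For CD8a- minus ThPOK+ 6 passed, and 0 to 49 under the alternatives (49 with plain log2 signals), 0 to 17 of them on leaving out 1 array. For CD8a+ minus CD8a- 0 passed under all 25. For TR minus WT 0 passed, and 0 to 34 under the alternatives (34 without the WT CD8a+ array of replicate 1). The deposited log2 table was not run as an alternative, since its row names matched no probe. Precision is limited by 2 arrays a group, by 16 of 32 genes being detected on only some arrays and by the different signal range of each replicate number.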
